A study of Mus musculus with 23 samples.

Results

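The miR-30 family was followed in sorted mouse lung cells around birth. Members were taken by microRNA identifier, and 5 of the 7 identifiers searched for had a row in the deposited table of 602 microRNA probes. These were the guide strands miR-30a-5p (MIMAT0000128), miR-30b-5p (MIMAT0000130), miR-30c-5p (MIMAT0000514), miR-30d-5p (MIMAT0000515) and miR-30e-5p (MIMAT0000248). The passenger strands miR-30a-3p (MIMAT0000129) and miR-30e-3p (MIMAT0000249) had no row and were not analysed here. All samples came from lungs of WT C57BL6 mice, with no treatment named. Cells that the titles call type II pneumocytes (AT2 cells here, in columns marked CD326) were represented by 13 samples, with 3 at P28 and 2 at each other stage (E16.5, E18.5, P1, P7 and P14). The titles use that name before birth as well, and whether the CD326 cells of every stage were type II pneumocytes was not tested. Endothelial cells (EC, in columns marked CD31) were represented by 10 samples, of which E18.5 and P1 had 1 each and the other stages 2. The labels do not say whether the samples of a group came from separate animals or pools, so p-values measure the spread between samples, which may be technical.

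MicroRNAs guide Argonaute proteins to messenger RNAs that pair with the seed, a short stretch near the 5′ end, and so lower the output of those messages. The miR-30 guide strands carry a common seed and are therefore predicted to share targets. The family is known in cultured epithelial cells for restraining Snai1, a factor that drives the transition of epithelial to mesenchymal cells, and in endothelial cells for targeting Dll4, a Notch ligand that limits vessel sprouting. Type II pneumocytes make surfactant, and their maturation together with the growth of the capillary bed spans the stages sampled here.

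RefSeq (GRCm38.p6, the assembly that corresponds to the mm10 build named in the submitters' processing notes) held the mature sequences of 3 of the 5 members, and miR-30b-5p and miR-30d-5p are named only. The sequences are shown because they are the strands measured and because the members differ outside the seed. Capitals mark the seed, bases 2 to 8 counted from the 5′ end.
miR-30a-5p: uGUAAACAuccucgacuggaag
miR-30c-5p: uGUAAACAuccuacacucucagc
miR-30e-5p: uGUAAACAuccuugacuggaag
The seed GUAAACA was found at bases 2 to 8 of 5 of 1738 mature entries, under 4 names: these 3 members, with miR-30c-5p entered from both of its genes, and miR-384-5p. miR-30a-5p and miR-30e-5p differed at 1 of 22 bases, C13U. miR-30a-5p and miR-30c-5p differed at 5 of the first 22 bases, the first of them at position 13. Only 3 of the 10 member pairs could be compared in this way, and reading of a member by the probe of another was not tested for any pair.

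The 6 family genes lie in 3 pairs. Mir30a (chr1:23272269-23272339, plus strand) and Mir30c-2 (chr1:23291701-23291784, plus strand) were separated by 19361 bases, and no other gene of the RefSeq table overlapped them. Mir30b (chr15:68337415-68337510) and Mir30d (chr15:68341208-68341289) were separated by 3697 bases, likewise with no overlapping gene. Mir30c-1 (chr4:120769534-120769622, minus strand) and Mir30e (chr4:120772606-120772697, minus strand) were separated by 2983 bases and lay within the bounds of Nfyc (chr4:120757435-120831579), which encodes a subunit of the transcription factor NF-Y. The hairpins of both miR-30c genes are shown because the mature strand, in capitals, was identical in them, so that the probe does not tell the 2 genes apart.
Mir30c-1: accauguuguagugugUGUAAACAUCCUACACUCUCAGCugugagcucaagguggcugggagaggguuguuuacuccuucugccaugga
Mir30c-2: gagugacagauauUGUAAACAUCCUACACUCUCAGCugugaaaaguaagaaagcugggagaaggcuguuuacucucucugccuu

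The values are nCounter counts, in which each microRNA molecule caught by a coded probe is counted, times 1 factor per sample set by the authors (0.296 to 7.93). MicroRNA counts per sample ranged from 26640 in AT2 P28 replicate 1 to 571715 in EC P1. A microRNA was tested if it was above the background of the control rows (mean plus 2 SD) in at least 2 samples, which left 302 (50.2%). All 5 members were tested and were above background in all 23 samples. The margin was smallest for miR-30e-5p, at 1.33 times the background limit (16 counts) in EC E18.5 and 1.43 times the limit (33 counts) in AT2 E18.5 replicate 2. EC P14 replicate 2 stood apart: its mean correlation over tested microRNAs was 0.889 with the other EC samples and 0.877 with the AT2 samples. With 95.1, the largest background limit of any sample, used as a floor for all values, its best match was an AT2 sample (P7 replicate 2, r = 0.958), and 22 of 23 samples matched a sample of their own type best. Sample titles begin with LMM.15 (11 samples) or LMM.16 (12 samples), and the labels do not say what the prefix stands for. Of the 12 groups, 9 held 1 prefix only, and the 3 mixed groups (AT2 P28, EC P14 and EC P28) each held 1 LMM.16 sample, the one with the highest replicate number. The marker microRNAs of each cell type were not matched to identifiers here, so the purity of the sorts was not measured by named markers. Lower values in these bulk samples cannot be told apart from fewer cells that express the microRNA. Levels are given as scaled counts and are compared between samples for 1 probe at a time, since probes differ in efficiency.

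miR-30a-5p was higher after birth than before it in both cell types. In AT2 cells it measured 325 and 389 scaled counts at E16.5, 504 and 510.4 at E18.5, 1584 and 1943 at P1, 2003 and 1739 at P7, 2292 and 2305 at P14, and 4081, 3847 and 4257 at P28. In EC it measured 595 and 694 at E16.5, 674 in the E18.5 sample, 1603 in the P1 sample, 4117 and 3349 at P7, 3609 and 1917 at P14, and 4492 and 6298 at P28. In each cell type every sample from P1 onwards lay above every embryonic sample. The lowest late EC value was that of P14 replicate 2, the sample that stood apart.

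miR-30d-5p followed a similar course at different levels in the 2 cell types. In AT2 cells it measured 364 and 381 scaled counts at E16.5, 646 and 555 at E18.5, 1828 and 1293 at P1, 1946 and 1711 at P7, 2096 and 2137 at P14, and 4364, 4012 and 1850 at P28. In EC it measured 296 and 316 at E16.5, 309 in the E18.5 sample, 785 in the P1 sample, 1067 and 1109 at P7, 1143 and 1369 at P14, and 1671 and 2245 at P28. At every stage but P28 all AT2 samples lay above all EC samples. AT2 P28 replicate 3 broke that order. It was the sample in which MIMAT0003484 alone took 62.8% of all microRNA counts, and the only LMM.16 sample of its group. The next highest share of MIMAT0003484, 34.1%, was that of AT2 P1 replicate 2, whose miR-30d-5p value (1293) lay below that of replicate 1 (1828).

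miR-30b-5p, the chromosome 15 neighbour of miR-30d-5p, showed a smaller difference between young and old samples and a wider spread within stages. In AT2 cells it measured 453 and 280.2 scaled counts at E16.5, 250.1 and 367 at E18.5, 447 and 214 at P1, 682 and 349 at P7, 619 and 672 at P14, and 1271, 1211 and 428 at P28. In EC it measured 198 and 128 at E16.5, 166 in the E18.5 sample, 237 in the P1 sample, 258 and 277 at P7, 286 and 383 at P14, and 370.5 and 444 at P28. AT2 P28 replicate 3 was low for miR-30b-5p as it was for miR-30d-5p, while its miR-30a-5p and miR-30e-5p values lay close to those of the other 2 samples. AT2 P1 replicate 2 was likewise below replicate 1 for miR-30b-5p (214 against 447) and miR-30d-5p, and above it for miR-30a-5p and miR-30e-5p.

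miR-30c-5p had higher values in EC than in AT2 cells at most stages. In AT2 cells it measured 1180.0 and 1108 scaled counts at E16.5, 2546 and 2195 at E18.5, 2276 and 2678 at P1, 2419 and 3386 at P7, 7685 and 3458 at P14, and 4156, 3432 and 4342 at P28. In EC it measured 2443 and 2700.2 at E16.5, 4542 in the E18.5 sample, 3462 in the P1 sample, 6599 and 6286 at P7, 12658 and 7638 at P14, and 15710.1 and 9161 at P28. All EC samples lay above all AT2 samples of the same stage except at P14, where AT2 replicate 1 (7685) fell between the EC samples. That AT2 sample had more than the other AT2 sample of its stage for miR-30c-5p, while its miR-30a-5p and miR-30d-5p values were within a few percent of it.

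For miR-30e-5p the order of the cell types differed between stages. In AT2 cells it measured 65.4 and 63.8 scaled counts at E16.5, 73.9 and 81.8 at E18.5, 174 and 249 at P1, 201 and 127 at P7, 202 and 188 at P14, and 335 (45 counts), 376 and 365 at P28. In EC it measured 76.3 and 83.2 at E16.5, 127 in the E18.5 sample, 111 in the P1 sample, 219.8 and 158 at P7, 134 and 164 at P14, and 131 and 216 at P28. The AT2 values lay below the EC values at both embryonic stages and above them at P1, P14 and P28, and the cell types overlapped at P7. The order at E16.5 depended on background. The mean of the control rows there was 27.5 and 22.2 scaled counts in the EC samples, against 7.29 and 8.56 in the AT2 samples. With these means taken off, the cell types overlap at E16.5.

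**Figure D1:**
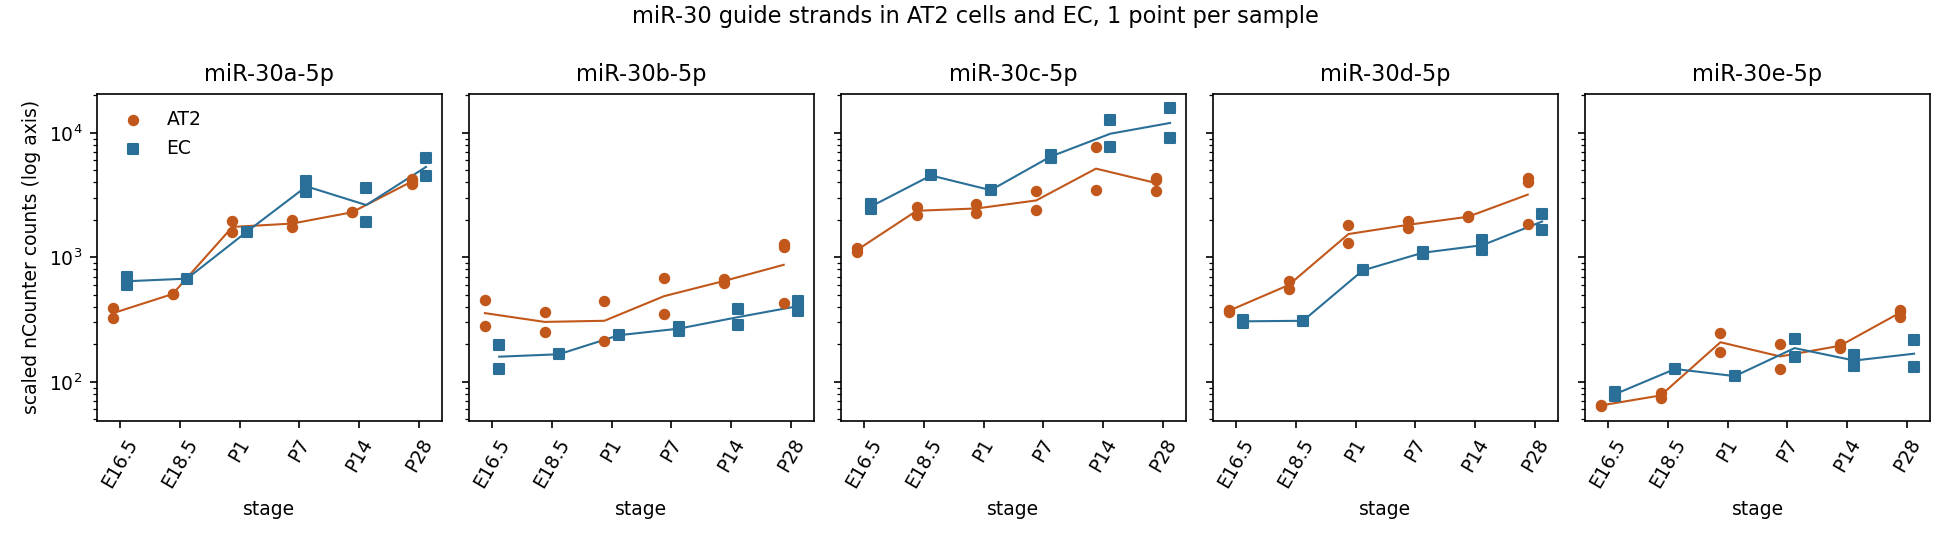
Scaled nCounter counts (log axis) of the 5 miR-30 guide strands by stage, 1 panel per microRNA, with 1 point per sample for AT2 cells (circles) and EC (squares) and lines through the geometric means of each stage. miR-30c-5p runs higher in EC, miR-30b-5p and miR-30d-5p run higher in AT2 cells, and all 5 have a higher mean at P28 than at E16.5 in both cell types.

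The family was higher after the first postnatal week than before birth in both cell types. Samples of P7, P14 and P28 (late) were set against those of E16.5 and E18.5 (early) with limma, a linear model across all 302 tested microRNAs on log2(value + 1), and a microRNA was called at a Benjamini-Hochberg adjusted p under 0.05 over all of them. Each stage had equal weight, so the only EC E18.5 sample weighed as much as both EC E16.5 samples together. The log2 differences are therefore not ratios of the sample means given below, whose SDs span the stages of each set. All 5 members rose in AT2 cells, where 11.3% of all tested microRNAs were called higher and 40.1% lower. All 5 also rose in EC, where 9.27% were called higher and 27.8% lower. The median difference of the 5 was 1.64 on the log2 scale in AT2 cells, beside -0.64 over all tested microRNAs, and 1.42 in EC, beside -0.57. These shares and medians depend on scaling and on background treatment. When samples were shifted to a common median, 77 microRNAs were called higher and 48 lower in AT2 cells (34 and 121 with the deposited scaling). In EC, 52 were then called higher and 23 lower (28 and 84). The medians were then 0.24 and 0.04, and all 5 members were again called higher in both cell types. With background subtracted the medians were -0.31 in AT2 cells and -0.18 in EC, and by edgeR on the recovered counts -0.05 and -0.03. All 5 members were called higher in both cell types under both settings. By the microRNA total of the sample the medians were -0.80 and -0.64, with 4 members called higher in AT2 cells and 3 in EC.

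By point estimate, the largest rise among the members was that of miR-30a-5p. It averaged 2932 ± 1081 scaled counts in late and 432 ± 90.4 in early AT2 samples (SD, n = 7 and 4), a log2 difference of 2.61 ± 0.21 (SE, limma adjusted p = 3.25e-08), or 6.09-fold. In EC it averaged 3964 ± 1445 in late and 654 ± 52.0 in early samples (SD, n = 6 and 3), a log2 difference of 2.50 ± 0.24 (limma adjusted p = 1.02e-06). Late and early samples did not overlap in either cell type.

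miR-30d-5p rose by nearly as much, with 2588 ± 1107 scaled counts in late and 486 ± 137 in early AT2 samples (SD, n = 7 and 4), a log2 difference of 2.29 ± 0.24 (limma adjusted p = 2.89e-07). In EC it averaged 1434 ± 457 in late and 307 ± 10.2 in early samples (SD, n = 6 and 3), a log2 difference of 2.16 ± 0.28 (limma adjusted p = 1.60e-05). For this member too the late and early samples did not overlap.

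miR-30c-5p rose by 1.24 ± 0.25 on the log2 scale in AT2 cells (limma adjusted p = 0.000373) and by 1.42 ± 0.29 in EC (limma adjusted p = 0.00114). Its early AT2 values overlapped the late ones, because E18.5 replicate 1 (2546) lay above P7 replicate 1 (2419), while E18.5 replicate 2 (2195) lay below every late AT2 sample.

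miR-30e-5p rose by 1.64 ± 0.23 in AT2 cells (limma adjusted p = 8.23e-06), with no overlap, and by 0.73 ± 0.26 in EC (limma adjusted p = 0.0407). miR-30b-5p rose by 0.98 ± 0.32 in AT2 cells (limma adjusted p = 0.0185) and by 1.01 ± 0.38 in EC (limma adjusted p = 0.0450). Late samples lay above early ones without overlap for 3 of 5 members in AT2 cells (7.28% of tested microRNAs did so) and for 5 of 5 in EC (6.95%). For miR-30e-5p in EC the gap was narrow, from 126.8 at E18.5 (16 counts) to 131.2 in P28 replicate 1 (34 counts). Each count of the E18.5 sample stood for 7.93 scaled counts, more than that gap.

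The calls of miR-30b-5p and miR-30e-5p in EC were the weakest. Both were lost without EC E16.5 replicate 1 (1.17 and 0.69), E16.5 replicate 2 (0.86 and 0.76), P7 replicate 1 (1.03 and 0.65), P14 replicate 2 (0.94 and 0.68) or P28 replicate 2 (0.97 and 0.61), leaving 3 members called each time. Both were also lost by the microRNA total of the sample (0.93 and 0.64) and without the EC samples of P1, P14 (replicate 2) and P28 (replicate 2) together (0.90 and 0.56). That of miR-30b-5p was also lost without EC E18.5 (1.05) or EC P7 replicate 2 (1.00) and, at the same value, without either AT2 P14 sample. That of miR-30e-5p was lost, at the same value, without either AT2 E16.5 sample. In all, the EC call was lost in 14 of 38 alternatives for miR-30b-5p, among them the common floor, no intensity trend and the title prefix as a term (0.95), and in 10 of 38 for miR-30e-5p, among them no filter. In AT2 cells the call of miR-30b-5p was lost in 4 of 38, without E16.5 replicate 2 (0.81), E18.5 replicate 1 (0.84) or P7 replicate 1 (0.82) and by the microRNA total (0.82). The other 7 calls were kept in all 38 alternatives run for them.

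**Figure D2:**
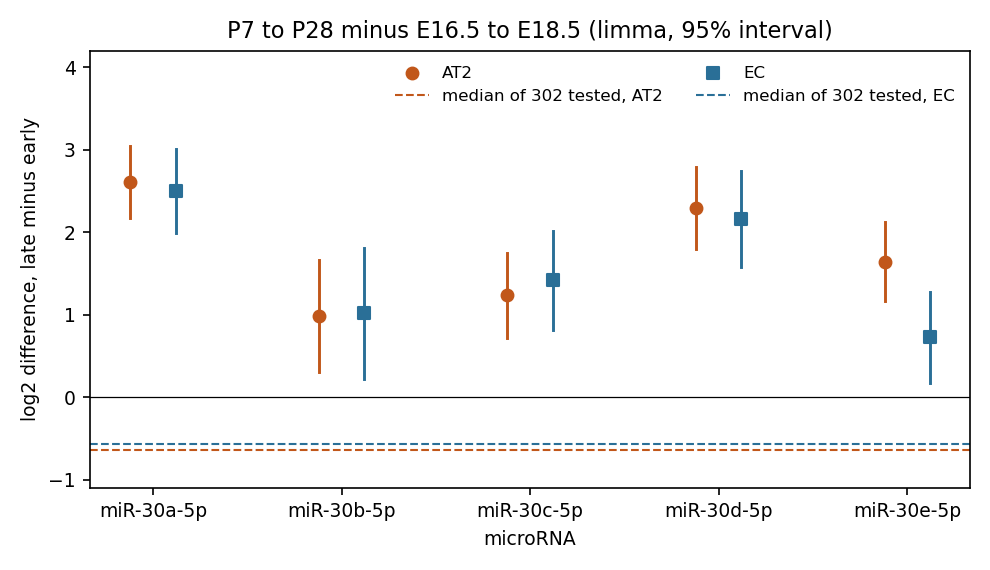
Log2 difference between late (P7 to P28) and early (embryonic) samples, late minus early, for each member in AT2 cells (circles) and EC (squares), with 95% limma intervals, and the median of the 302 tested microRNAs in each cell type (dashed). All 10 intervals lie above 0, while both medians with the deposited scaling, -0.64 and -0.57, lie below it.

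Whether the rise differed between the cell types was tested as the interaction, the AT2 difference minus the EC difference. None of the 5 members was called in limma (6.29% of tested microRNAs were), and 1 of 5 had an unadjusted p under 0.05. That was miR-30e-5p, whose AT2 rise exceeded its EC rise by 0.92 ± 0.35 on the log2 scale (95% interval 0.19 to 1.65, limma adjusted p = 0.155). The other interaction values were 0.11 for miR-30a-5p (interval -0.57 to 0.78), -0.03 for miR-30b-5p (-1.08 to 1.01), -0.18 for miR-30c-5p (-0.97 to 0.61) and 0.12 for miR-30d-5p (-0.64 to 0.89). These intervals leave room for differences of up to about 2-fold in either direction. edgeR also called 0 of the 5, beside 1.32% of tested microRNAs with a positive and 2.65% with a negative interaction. DESeq2 called 0 of the 5 as well.

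The course between stages was tested in the same fit, so these contrasts share samples with those above. An F-test over the 6 stages called 5 of 5 members in AT2 cells (49% of tested microRNAs) and 3 of 5 in EC (27.2%), which were miR-30a-5p, miR-30c-5p and miR-30d-5p. Of 50 steps between successive stages (5 members, 10 steps), 3 were called, beside 1.62% of the steps of all tested microRNAs, and all 3 were P1 minus E18.5 in AT2 cells, where 2.65% of tested microRNAs were called higher. miR-30a-5p rose by 1.79 ± 0.33 on the log2 scale at that step (limma adjusted p = 0.00619). miR-30e-5p rose by 1.41 ± 0.36 (limma adjusted p = 0.0272) and miR-30d-5p by 1.36 ± 0.37 (limma adjusted p = 0.0308). Both AT2 E18.5 samples carry the title prefix LMM.15 and both AT2 P1 samples LMM.16, so the step coincides with a change of prefix. Since each group has its own mean, a prefix term rests only on the 3 groups that hold both prefixes. Their LMM.16 samples are AT2 P28 replicate 3, in which MIMAT0003484 took 62.8% of the counts, EC P14 replicate 2, which stood apart, and EC P28 replicate 2. With the prefix as a term, a fit added after seeing the data, the 3 steps measured 1.87 ± 0.41, 1.09 ± 0.42 and 1.62 ± 0.46 in the order given, and none was called (limma adjusted p = 0.0848, 0.339 and 0.156). By the microRNA total they measured 1.60, 1.22 and 1.17, likewise with no call (limma adjusted p = 0.0650, 0.195 and 0.267). The 3 steps were called under the other 4 settings run, median shift, quantile normalization, background subtraction and the common floor. For miR-30b-5p and miR-30c-5p the same step measured 0.03 ± 0.51 and 0.06 ± 0.39. The E18.5 minus E16.5 step of miR-30c-5p in AT2 cells measured 1.05 ± 0.39 but was not called (limma adjusted p = 0.346). Both AT2 E16.5 samples carry LMM.16, so that step also coincides with a change of prefix. In EC the P1 minus E18.5 step compares 1 sample with 1 and rests on the spread of the other groups. It measured 1.25 ± 0.47 for miR-30a-5p and 1.34 ± 0.53 for miR-30d-5p, neither of them called. The EC E18.5 sample carries LMM.15 and the EC P1 sample LMM.16, so this step coincides with a change of prefix too.

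The members split in the comparison of AT2 cells with EC. Averaged over the 6 stages, 4 of 5 were called by limma, and 67.2% of all tested microRNAs were called, 19.5% higher and 47.7% lower in AT2 cells. miR-30b-5p (0.89 ± 0.22 on the log2 scale, limma adjusted p = 0.00212) and miR-30d-5p (0.74 ± 0.16, limma adjusted p = 0.000739) were higher in AT2 cells, by 1.85-fold and 1.67-fold. miR-30c-5p (-1.05 ± 0.17, limma adjusted p = 3.67e-05) and miR-30a-5p (-0.45 ± 0.14, limma adjusted p = 0.0109) were lower in AT2 cells. miR-30e-5p differed by 0.19 ± 0.16 and was not called (95% interval -0.14 to 0.52, limma adjusted p = 0.279). The median of the 302 tested microRNAs was -0.43. No member separated all AT2 from all EC samples, which 0.331% of tested microRNAs did with higher and 4.97% with lower AT2 values.

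The titles give 9 specimen IDs that occur in both cell types, without saying what an ID stands for. Within these IDs miR-30b-5p and miR-30d-5p were each higher in AT2 cells in 8 of 9, miR-30a-5p and miR-30c-5p each in 1 of 9, and miR-30e-5p in 4 of 9. The calls of miR-30b-5p (0.80 to 1.69) and miR-30d-5p (0.69 to 1.54) held in all 39 alternatives. That of miR-30c-5p was lost only when values were divided by the microRNA total of the sample (-0.25). The direction of miR-30a-5p depended on the scaling: the difference was 0.35 by the microRNA total and 0.078 by DESeq2, and it was not called by median shift (-0.10), quantile normalization (-0.31) or edgeR (-0.11). miR-30e-5p was called higher in AT2 cells by the microRNA total (0.99), DESeq2 (0.71), median shift (0.54) and edgeR (0.53). The split of all microRNAs moved too, with 29.1% called higher and 33.8% lower in AT2 cells by median shift, and 37.1% higher and 13.9% lower by the microRNA total.

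Stage by stage, the difference between AT2 cells and EC was positive at all 6 stages for miR-30b-5p and miR-30d-5p and negative at all 6 for miR-30c-5p, with 5 of the 30 differences called by limma. At E16.5 (35.8% of microRNAs called) miR-30c-5p was lower in AT2 cells (-1.17 ± 0.39, limma adjusted p = 0.0277). At P7 (44% called) miR-30c-5p was again lower (-1.17 ± 0.39, limma adjusted p = 0.0244), as was miR-30a-5p (-0.99 ± 0.33, limma adjusted p = 0.0249). At P28 (29.1% called) miR-30c-5p was lower (-1.60 ± 0.35, limma adjusted p = 0.00247), and miR-30e-5p was higher by 1.08 ± 0.33 (limma adjusted p = 0.0176). No member was called at E18.5 (2.65% called), P1 (7.28%) or P14 (21.9%), and EC had 1 sample at each of E18.5 and P1.

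**Figure D3:**
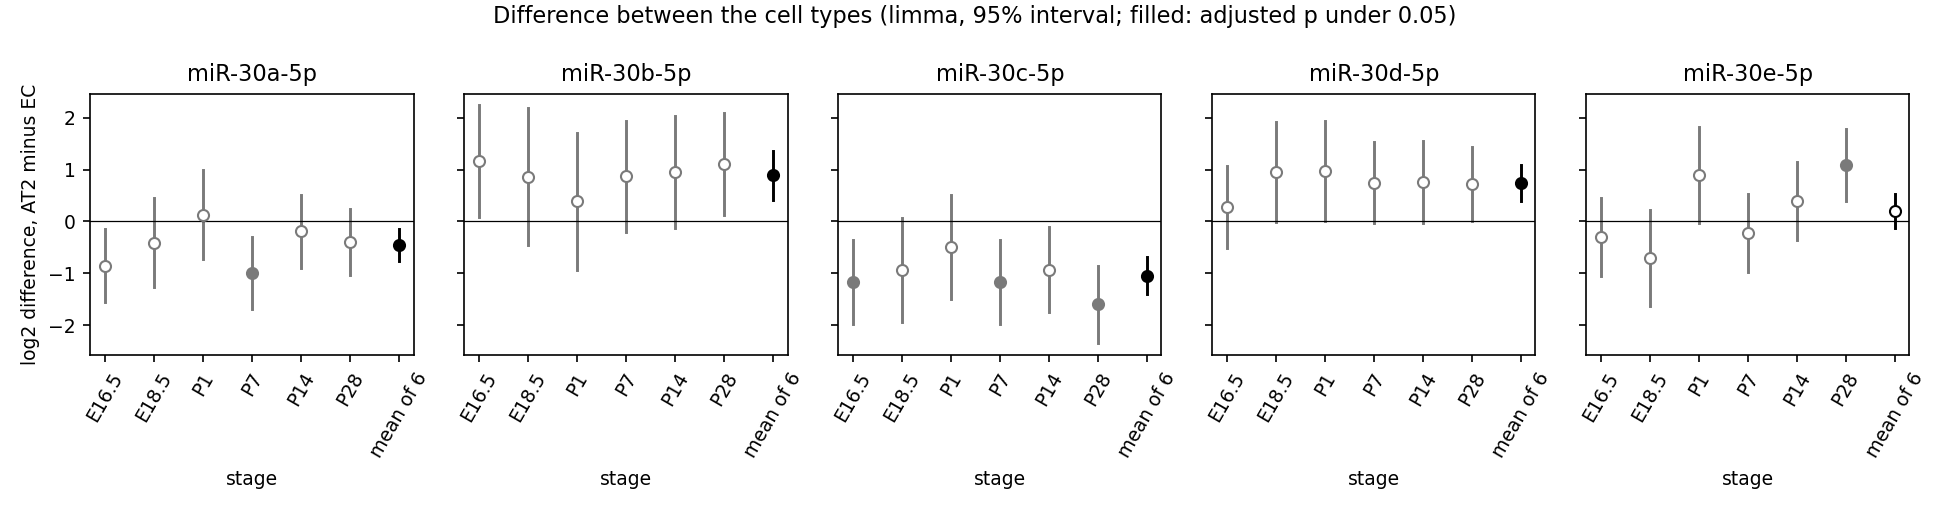
Log2 difference of AT2 cells minus EC for each member at each stage (grey) and averaged over the 6 stages (black), with 95% limma intervals and filled points for adjusted p under 0.05. miR-30b-5p and miR-30d-5p lie above 0 and miR-30c-5p below 0 at every stage, and miR-30e-5p is called at P28 only.

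Ratios of 2 members within a sample are free of the factor by which the sample was scaled, and they were compared between samples as a description. The ratio of miR-30c-5p to miR-30d-5p ranged from 0.856 to 3.96 in the 13 AT2 samples, against 4.08 to 14.7 in the 10 EC samples, with no overlap. It was the only one of the 10 member pairs without overlap, and 5.23% of the 45451 pairs of tested microRNAs had none. By stage it was 3.24 and 2.91 in AT2 cells at E16.5, against 8.25 and 8.54 in EC, and 0.952, 0.856 and 2.35 in AT2 cells at P28, against 9.40 and 4.08 in EC. The lowest EC ratio was that of P28 replicate 2, and the highest AT2 ratio that of E18.5 replicate 2. The ratio of miR-30b-5p to miR-30c-5p ranged from 0.0798 to 0.384 in AT2 samples, against 0.0226 to 0.0813 in EC samples.

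The ratio of miR-30b-5p to miR-30d-5p, whose genes are neighbours, overlapped widely between the cell types and was lower late than early in both. It ranged from 0.204 to 0.351 in late and 0.387 to 1.24 in early AT2 samples, and from 0.198 to 0.280 in late and 0.404 to 0.670 in early EC samples. In AT2 P28 replicate 3, where both members were low, the ratio was 0.232, against 0.291 and 0.302 in the other 2 samples. The ratio of miR-30a-5p to miR-30c-5p was instead higher late than early in mean, although late and early samples overlapped. Its geometric means were 0.710 in late and 0.258 in early AT2 samples, and 0.409 in late and 0.210 in early EC samples.

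**Figure D4:**
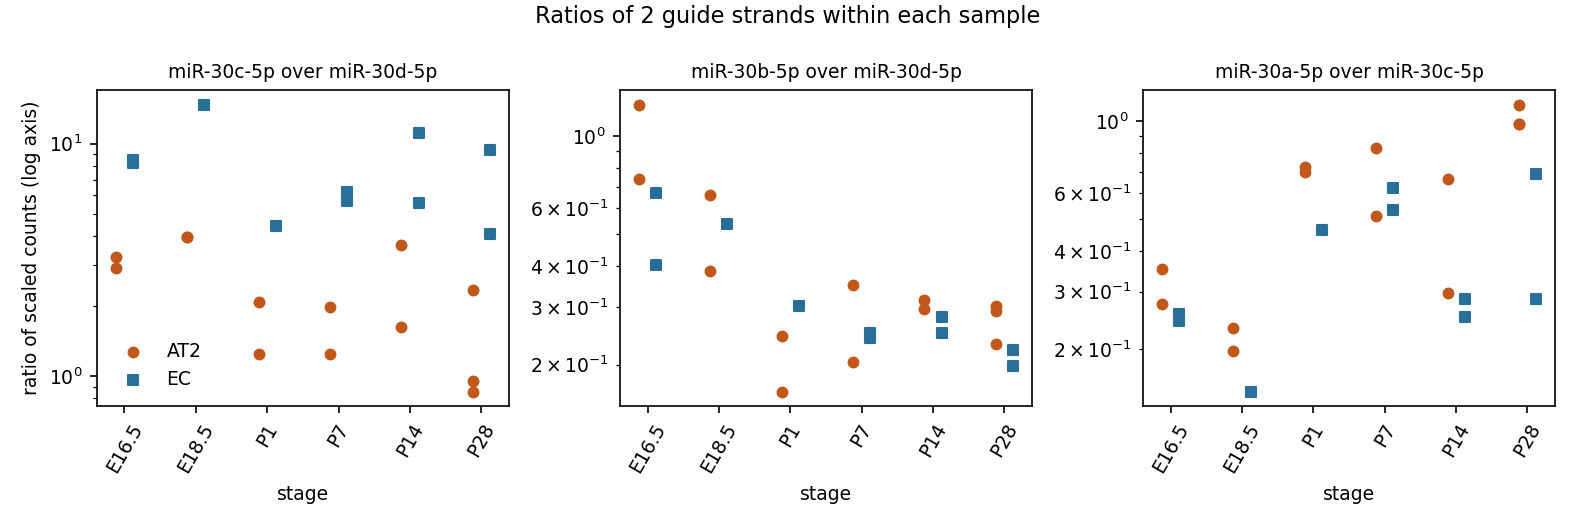
Ratios of scaled counts of 2 guide strands within each sample (log axis, a separate scale in each panel) by stage, with 1 point per sample for AT2 cells (circles) and EC (squares). The ratio of miR-30c-5p to miR-30d-5p keeps AT2 samples (0.856 to 3.96) below EC samples (4.08 to 14.7), and that of miR-30b-5p to miR-30d-5p is lower in late than in early samples of both cell types.

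The 5 members together took a larger mean share of the microRNA counts late than early. The share was 5.58% ± 1.65 in late and 1.87% ± 0.602 in early AT2 samples (SD, n = 7 and 4), and 4.55% ± 1.13 in late and 1.38% ± 0.555 in early EC samples (SD, n = 6 and 3). The lowest late AT2 share, 2.29% (95% Wilson interval 2.25 to 2.34, counting error only), was that of P28 replicate 3 and lay below both E18.5 shares (2.33% and 2.45%), so late and early AT2 samples overlapped. A share depends on the other microRNAs, and MIMAT0000138 alone took 0.160% to 7.82% of the counts in AT2 samples. In EC samples it took 23.4% to 44.9%, lowest in P14 replicate 2. Among AT2 samples its share was highest in P7 replicates 1 (7.82%) and 2 (6.47%) and P14 replicate 2 (5.76%), and at most 3.09% in the others. The part of the levels of MIMAT0000138 in the other results was not tested. With that microRNA and MIMAT0003484 left out of the total, a choice made after seeing the data, the share was 6.75% in late and 2.07% in early AT2 samples, and 7.74% in late and 2.27% in early EC samples. Within the family, miR-30c-5p made up 44.1% of the members' counts in AT2 samples, against 63.8% in EC samples, and miR-30d-5p 21.7% in AT2 samples, against 9.09% in EC samples.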

How the data were processed

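Total RNA from the sorted cells was prepared and read with the nCounter mouse miRNA kit and panel, per the labels' protocols. The deposited values are a signal: nCounter counts times 1 factor per sample, as the values show, since 13631 of 13846 microRNA values were checked and all came out as whole counts within a tolerance of 0.1. The other 215 values, in 9 columns, are listed at 1 and are not multiples of the factor. How the authors chose the factor and treated background is not given in the sources used here. Over 1 fixed set of the 100 most abundant microRNAs, the geometric mean per sample was 537 to 619. Columns were matched to samples by the sample descriptions.

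Background was taken from the 8 low rows among the 14 ERCC control rows, as the mean plus 2 SD of their counts in each sample. The main test was limma 3.58.1 (R 4.3.3, lmFit and eBayes with an intensity trend) on log2(value + 1), with 1 mean for each of 12 groups over 23 samples. Fold changes are on that scale, p-values are two-sided, and a group with 1 sample takes its spread from all groups. edgeR 4.0.16 and DESeq2 1.42.0 ran on the recovered counts as alternatives, beside other scalings, background treatments, filters, pseudocounts, variance models, blocks and left-out samples. The tests were checked on simulated data in which 200 of 302 microRNAs were changed. There limma recovered 96% of 2-fold changes for AT2 minus EC and 74% for late minus early in each cell type. Of 102 unchanged microRNAs it called 4 for AT2 minus EC, 3 for late minus early in AT2 cells and 4 in EC. Sequences and loci were read from RefSeq tables (Python 3.11.15).

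The members and lists were chosen with earlier results of these data known. All members were named, and non-members only by their likeness to the members' mean or by their share of the counts. Deviations of AT2 and EC samples with the same ID correlated at 0.21 to 0.31 for 6 of 7 IDs and at -0.02 for 1, and 2 IDs had no value because their EC group is 1 sample. The 2 IDs of E16.5 share 1 value (0.27), as do those of P7 (0.28). Groups of 2 samples centred on their mean give the same correlation for both IDs, so these are not separate observations. Since not every value was above 0.1, and the labels do not say what an ID marks, the ID block is an alternative, not the main design. The plan to compare guide with passenger strands was not run, because both passenger strands lacked a row in the table used here.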

Additional observations from a re-analysis of the deposited data

How the results depend on the processing

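The number of members called kept within 1.5 times of its value in all 39 alternatives for AT2 minus EC and in all 38 for late minus early in AT2 cells. That number does not say which members were called or in which direction. For AT2 minus EC, 3 members were called higher and 0 lower by the microRNA total, and 3 and 1 by median shift, against 2 and 2 in the main analysis. For late minus early in EC, 3 members were called by the microRNA total and 3 without EC P1 replicate 1, P14 replicate 2 and P28 replicate 2 together, against 5 in the main analysis, and 3 to 5 when 1 sample was left out. By the microRNA total, 3 members changed over stages in AT2 cells (5 in the main analysis), 3 differences between AT2 cells and EC at single stages were called (5) and 0 steps between successive stages (3). With the title prefix as a term, added after seeing the data, 0 steps between successive stages were called (3), and 6 differences at single stages (5). DESeq2 called 5 members over the stages of EC (3 in limma). For the counts over stages, at single stages and between successive stages, the shares of all tested microRNAs under these alternatives are not given. Those counts therefore cannot be set against the other microRNAs. The interaction called 1 member without the 3 EC samples together, miR-30e-5p (1.08, adjusted p = 0.0455, over a range of 0.0455 to 0.659 in its 39 alternatives). The interaction sign of the others was unsettled. That of miR-30b-5p (-0.03) was 0.25 by median shift, 0.11 by quantile normalization, 0.044 with array weights, 0.013 with the title prefix as a term, 0.080 without the 3 EC samples, 0.059 by edgeR and 0.058 by DESeq2, and ran from -0.21 to 0.14 when 1 sample was left out. That of miR-30c-5p (-0.18) was 0.10 by median shift, 0.11 by quantile normalization and 0.11 with the ID as a fixed replicate block, and from -0.59 to 0.012 when 1 sample was left out. That of miR-30a-5p ran from -0.047 to 0.26 when 1 sample was left out, and that of miR-30d-5p was -0.033 with the fixed replicate block, which left 3 residual degrees of freedom. AT2 minus EC for miR-30a-5p was 0.35 by the microRNA total and 0.078 by DESeq2. The causes were not tested. The random replicate block (consensus correlation 0.23) changed no call of a member. The EC shares without the 2 abundant microRNAs were 7.74% late and 2.27% early. Depth limits miR-30e-5p most, with 16 to 34 counts in 5 samples.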

Other observations

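The members also differed in how closely they tracked one another. Across the 6 stage means of AT2 cells, miR-30a-5p correlated with miR-30d-5p at r = 1.00 and with miR-30e-5p at r = 0.98, but with miR-30b-5p at r = 0.77. In EC, miR-30a-5p correlated with miR-30d-5p at r = 0.98 and with miR-30b-5p at r = 0.95. For the neighbours miR-30b-5p and miR-30d-5p, r was 0.76 in AT2 cells and 0.99 in EC. For the neighbours miR-30c-1 and miR-30e no such value can be given, because both miR-30c genes give the same mature strand. These are descriptions over 6 means of the same samples, with no test.

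Among 201 non-members above background in at least 12 samples, MIMAT0000531 (r = 0.948) and MIMAT0000534 (r = 0.931) were most like the mean of the 5 members over the 12 group means. The group means share samples and scaling, and these identifiers were not matched to names here.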
